A study of Mus musculus with 4 samples.

Results

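CTCF binding was described at 8 transcription factor genes of the cortical excitatory lineage, Emx1, Emx2, Pax6, Lhx2, Tbr1, Bcl11b, Cux1 and Cux2, out of 21938 protein-coding genes in the annotation. The genes were taken from a fixed list of names that was chosen with earlier results of these data known. All 8 were found in the GENCODE annotation of GRCm38. For each gene, peak summits were collected within 1000 bp of a transcript start (called the promoter here), inside the gene, and in the 250 kb on each side of it. Distances were measured from the 5' end of the gene record, negative upstream and positive downstream in the direction of transcription.

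Binding was measured by ChIP-seq against CTCF, the sequencing of DNA precipitated with the protein, in frozen tissue of the left cerebral cortex. The mice were B6CASTF1/J females, adult at 2 months of age, whose strain name stands for a first cross between C57BL/6J and CAST/EiJ mice. The 4 libraries came from 2 pools, pool I and pool J, each made of 4 cortex samples and sequenced as 2 technical replicates. There was 1 condition, so no treatment or genotype was compared, and the pools were the replicates. The tissue is a mixture of cell types, and a peak list cannot show which of them carried a bound site or check the tissue label by marker genes. The conservative list, with 44672 peaks reproducible between both pools, was used for the main values. The optimal list (50827 peaks), the pool I list (82131 peaks) and the pool J list (52658 peaks) were read beside it. All 4 lists were thresholded by the authors at an irreproducible discovery rate (IDR) of 0.05, the estimated share of irreproducible peaks among those ranked as high. The read depth is unknown.

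CTCF is a zinc finger protein that stops the movement of cohesin along chromatin and so sets the anchors of loops and the borders of chromatin domains, and it stops cohesin mostly on one side, given by the strand of its motif. It also binds at a minority of promoters. In the developing cortex, glutamatergic neurons are made by radial glia of the dorsal telencephalon. Emx1, Emx2, Pax6 and Lhx2 act in these progenitors: Emx1 and Emx2 are homeobox genes of the dorsal telencephalon, Emx2 and Pax6 act in opposite gradients in the patterning of cortical areas, and Lhx2, a LIM homeobox gene, is required for cortical identity. Tbr1, a T-box gene, specifies corticothalamic neurons of the sixth layer, and Bcl11b, also named Ctip2, is a zinc finger gene of subcerebral projection neurons of the fifth layer. Cux1 and Cux2 are cut homeobox genes of the upper cortical layers.

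The 8 genes lie on 5 chromosomes of mm10. Emx1 is at chr6:85187438-85204462, Emx2 at chr19:59458372-59465357, Pax6 at chr2:105668900-105697364, Lhx2 at chr2:38339281-38369733 and Tbr1 at chr2:61802930-61814114, all on the plus strand. Bcl11b is at chr12:107910403-108003602, Cux1 at chr5:136248135-136567490 and Cux2 at chr5:121856366-122050102, all on the minus strand. The windows of genes on the same chromosome do not overlap, so no summit is counted for more than 1 gene.

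The sequences that the results turn on are the CTCF motif windows nearest the promoter summits and the strongest sites. Each is given from the GRCm38.p6 reference (mm10), 5' to 3' on the strand named, with the 20 bp motif window in capitals and 5 flanking bases on each side. The CAST/EiJ alleles that these mice also carry were not analysed here. The motif was learned from the conservative peaks themselves, with the consensus TGGCCACCAGGGGGCGCTAG, and was searched on both strands within 50 bp of a summit. A window scoring at least 8.58 was called a motif, a score that 1% of flanking windows passed. The 3 promoter sites lie at chr5:136567616-136567645 (Cux1, plus strand), chr5:122050476-122050505 (Cux2, plus strand) and chr12:108004164-108004193 (Bcl11b, plus strand). The Bcl11b window is the best scoring one at that summit, and at a score of -16.4 it was not called.
Cux1 promoter: cggccCGGCCTCGAGGGGGCGCTGCggggt
Cux2 promoter: ggtgaCCGCCGCGAGGGGGCGCCCCggagc
Bcl11b promoter, not called: actggGGGCGACTAGCGGTGGCTTTttaac

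A second set comprises 4 of the sites with the highest signal values around the 8 genes, and the strong site nearest to the Emx2 start. The sites are at chr19:59239624-59239653 (upstream of Emx2, plus strand), chr12:107998943-107998972 (in Bcl11b, minus strand), chr5:121842993-121843022 (past the end of Cux2, minus strand), chr2:38430120-38430149 (downstream of Lhx2, plus strand) and chr19:59454374-59454403 (just upstream of Emx2, plus strand).
Emx2, distal: tcaaaTGGCCACCAGGTGGCGCGCCagacc
Bcl11b, intron: cttctCGTCAGCTAGGGGGCGCTCGctgcc
Cux2, past the gene end: gcccaTGACCAGCAGAGGGCGCGCGagcct
Lhx2, downstream: gatccTGGTCACTAGGGGGCGAAATctctt
Emx2, proximal, not called: atcccTCGCCACTAGGCGCCGCTGCacaca

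CTCF summits lay at the promoters of Cux2, Cux1 and Bcl11b in all 4 lists, and at none of the other 5 genes in any of them. These 3 of 8 genes (37.5%) stand beside 20.8% of all protein-coding genes in the conservative list, 23.8% in the optimal list, 37.4% in the pool I list and 25.2% in the pool J list. Of the genes of cortical layers, Cux1, Cux2 and Bcl11b had a promoter summit and Tbr1 had none. The progenitor genes Emx1, Emx2, Pax6 and Lhx2 had none either. No difference between layer genes and progenitor genes was tested. With a count of 8 genes, the share is a description and was not tested. Narrowing the window to 500 bp left 1 of 8 genes, Cux1, beside 15.7% of all genes. Widening it to 5000 bp gave 4 of 8, with Emx2 added, beside 38.8%.

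Cux2 had by far the strongest of the 3 promoter summits. It lay 386 bp upstream of the gene's 5' end and 637 bp from the nearest transcript start, in an intron of Gm15637. Its signal value was 621 in the conservative list (rank 958), where 97.9% of peaks had a lower signal, 382 in the pool I list (99.2% lower) and 244 in the pool J list (96.6% lower). The site was therefore near the top of both pools' lists. Its motif, on the plus strand, was centred 3 bp from the summit.

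The Cux1 summit was of middling strength. It lay 98 bp upstream of the 5' end, at a signal of 258 in the conservative list (48.4% of peaks lower), 181 in the pool I list (71.9% lower) and 78.2 in the pool J list (55.6% lower). Its ranks in these lists were nearly the same, 23036, 23065 and 23395, so the differing shares reflect the lengths of the lists. A motif on the plus strand was centred 43 bp from the conservative summit, upstream of it in the direction of transcription. In the pool I and pool J lists the summit was called 87 and 89 bp upstream, and that motif was then over 50 bp away and not counted. Further weak summits followed inside the gene, at +1066 in the optimal list (0.624% of peaks lower) and at +1067 and +867 in the pool J list (27.2% and 0.942% lower).

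The Bcl11b summit, 574 bp upstream of the 5' end, was close to that of Cux1 in strength and carried no called motif. Its signal was 253 in the conservative list (47.6% lower), 179 in the pool I list (71.5% lower) and 74.4 in the pool J list (54.3% lower), at ranks of 23421, 23376 and 24074. The order of the promoter signals was thus Cux2, Cux1, Bcl11b in every list. The gap between Cux1 and Bcl11b was smaller than the spread between pools over all conservative peaks (SD 0.39 for their log2 ratio). That SD is over different peaks and is not the error of this gap, so whether the levels differ cannot be told.

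The ranked lists also held weak peaks below the authors' threshold. With these counted, a promoter peak was found at 5 of 8 genes in the ranked list of both pools, beside 49.0% of all protein-coding genes, at 6 in that of the pooled reads (56.5%), at 7 in that of pool I (59.0%) and at 4 in that of pool J (37.7%). Pax6 had a peak 548 bp from an internal start at a signal of 46.6 and an IDR of 0.167 in the list of both pools. Emx2 had a peak at +999 with a signal of 45.3 and an IDR of 0.682, and Emx1 one at +776 with a signal of 14.6 and an IDR of 0.698. The Emx1 peak was taken from the ranked list of the pooled reads. Tbr1 had 4 peaks within 1000 bp of its starts in the ranked pool I list alone, with signals of 5.33 to 10.5. No ranked list held a peak at a Lhx2 start.

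**Figure D1:**
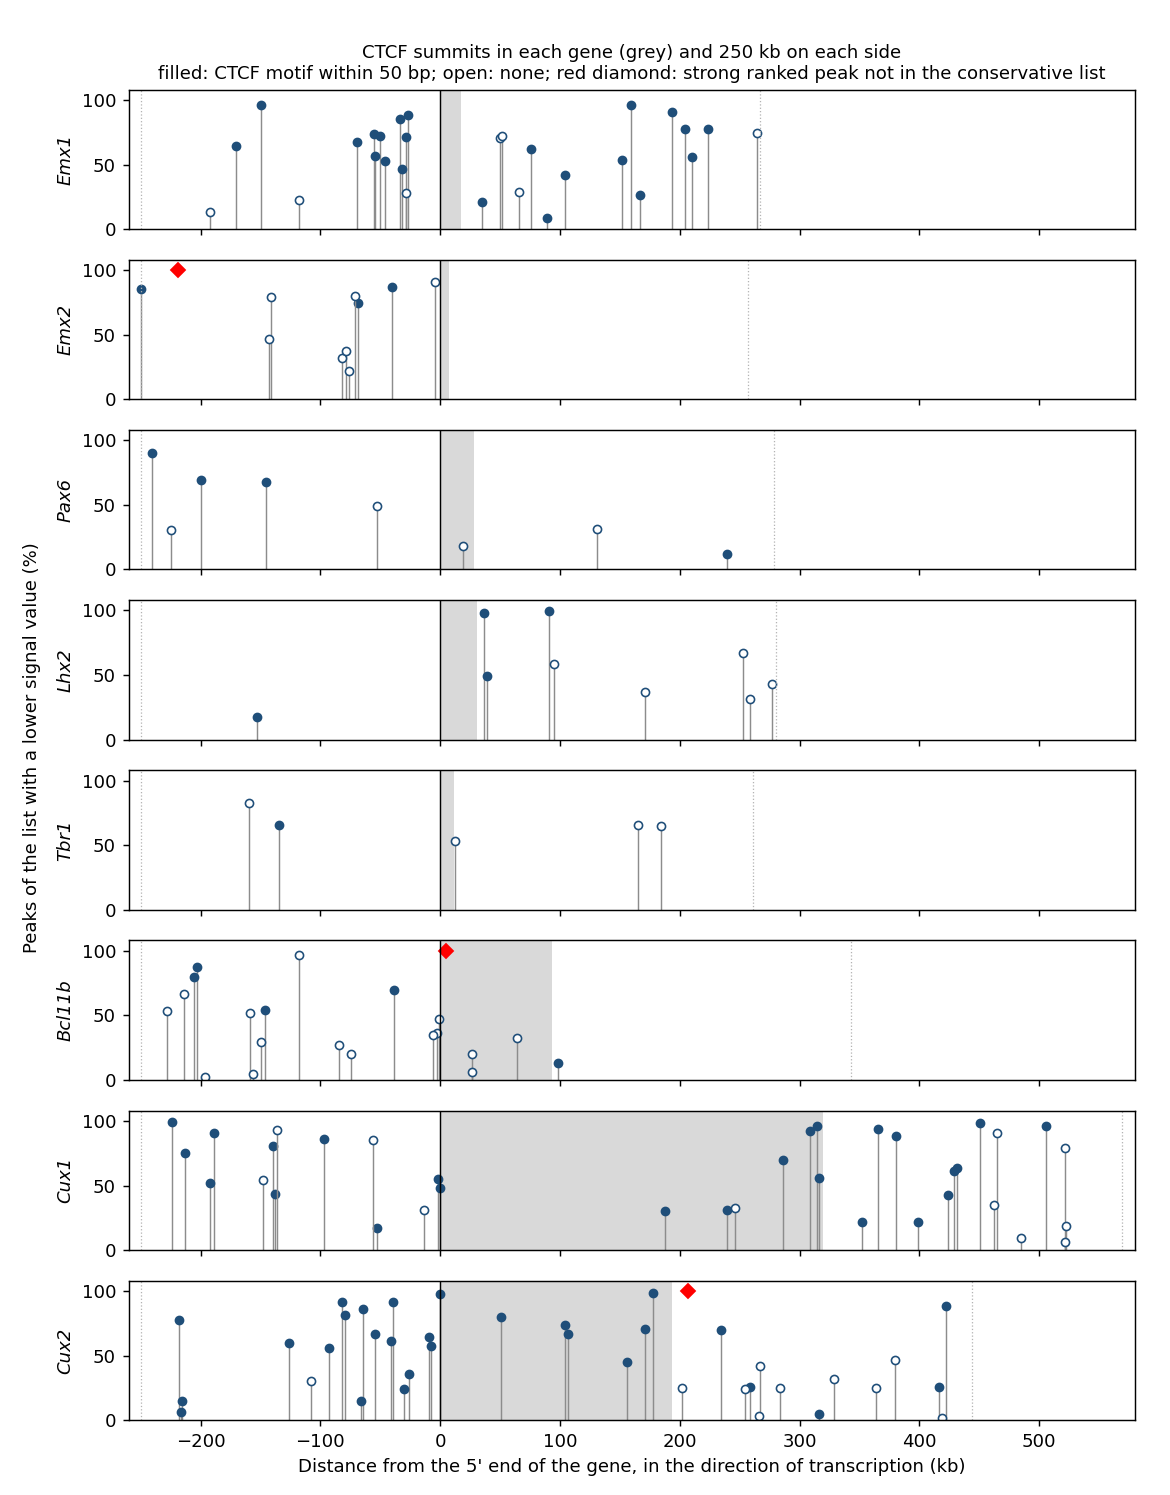
Maps of the conservative CTCF summits around each gene. The horizontal axis is the distance from the 5' end in kb, the vertical axis the percentage of conservative peaks with a lower signal, grey the gene, dotted lines the ends of the 250 kb flanks; filled circles have a motif within 50 bp, open circles have none, and red diamonds are 3 strong peaks that are not in the conservative list, placed by their share in the ranked list of both pools. Summits are dense around Emx1, Cux1 and Cux2, sparse around Pax6, Lhx2 and Tbr1, and one-sided at Emx2 and Bcl11b.

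The 8 genes differed widely in how many summits lay in and around them. In the conservative list 17 summits lay inside the genes and 138 in their flanks. At least 1 summit lay inside 4 of 8 genes, beside 45.8% of all genes, and the same count was 5 in the optimal list (48.6% of all genes), 6 in the pool I list (59.2%) and 4 in the pool J list (49.4%). All 8 genes had a summit in the upstream 250 kb in every list, beside 91.0% of all genes in the conservative list, 91.7% in the optimal list, 93.7% in the pool I list and 91.9% in the pool J list. A downstream summit was found at 7 of 8 genes in the conservative list (90.4% of all genes), the optimal list (91.1%) and the pool J list (91.2%), and at all 8 in the pool I list (93.0%), the exception being Emx2. The median of the flank counts was 13.5 over the 8 genes and 14 over all protein-coding genes. The order of the total counts in gene and flanks was Cux2 (38), Cux1 (36), Emx1 (29), Bcl11b (20), Emx2 (10), Lhx2 (9), Pax6 (8) and Tbr1 (5). Cux2 and Cux1 had more summits than 97.3% and 96.1% of all genes, while Tbr1 had more than 13.5% of them. These totals include the gene itself, and Cux2 and Cux1 were longer than 95.2% and 97.6% of all genes. In the flanks alone, which have the same size at every gene, the shares were 93.4% for Cux2, 89.3% for Cux1 and 15.1% for Tbr1.

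**Figure D2:**
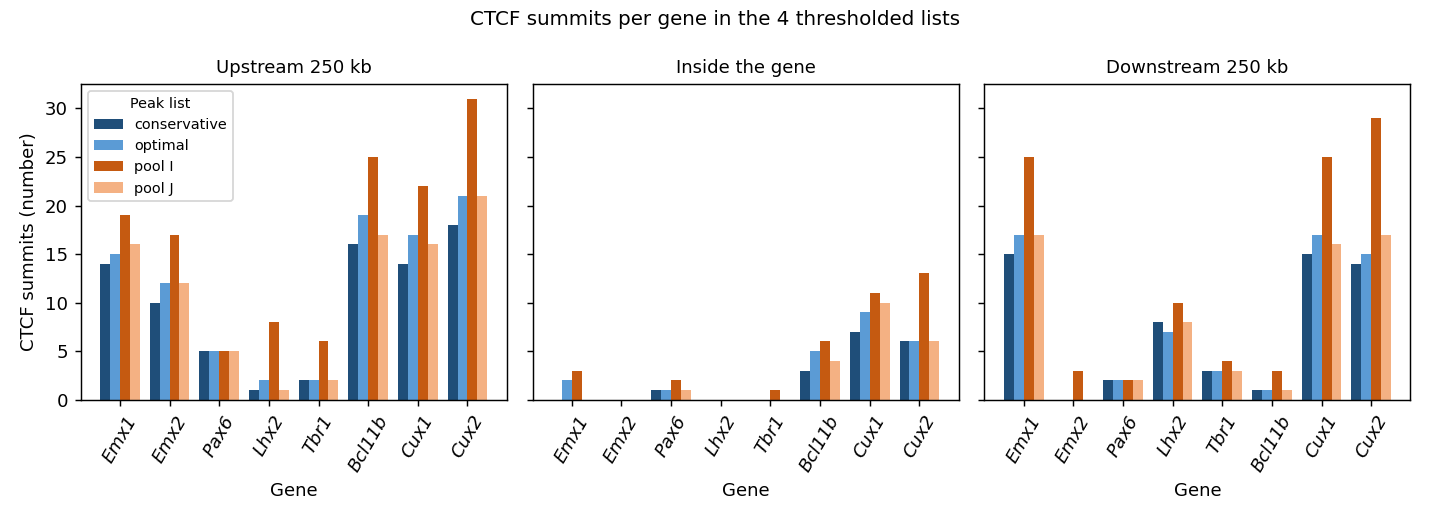
Number of CTCF summits in the 250 kb upstream, inside the gene and in the 250 kb downstream of each gene, with a bar for each of the 4 thresholded lists. The pool I list has the most summits at nearly every gene, and Emx2, Lhx2 and Bcl11b have many more summits on one side than on the other in the conservative list.

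Emx1 lay in a dense stretch of summits but held none itself in the conservative list. Upstream it had 14 summits in the conservative list, 15 in the optimal list, 19 in the pool I list and 16 in the pool J list, and downstream 15, 17, 25 and 17. Inside the gene there were 0, 2, 3 and 0. The 3 pool I summits inside it were at +4941, +10193 and +15482, and none had a motif. The nearest conservative summits were 27044 bp upstream and 34772 bp downstream, whereas a weak summit 7673 bp upstream was called in the pool J list (23.2% of its peaks lower) and 7666 bp upstream in the pool I list (33.2% lower). The strongest were at +158962 in an intron of Rab11fip5 (signal 603, 96.5% lower), nearest to the start of Sfxn5, and at -149527 in an intron of Exoc6b (598, 96.0% lower). Of the 8 other protein-coding genes that start in its flanks, Exoc6b, Spr, Pradc1 and Cct7 had a conservative promoter summit.

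Emx2 had all its conservative summits on the upstream side. The upstream count was 10 in the conservative list, 12 in the optimal list, 17 in the pool I list and 12 in the pool J list. None lay inside the gene in any list, and none in the downstream flank except 3 weak summits of the pool I list, with at most 21.0% of its peaks lower. A downstream flank with no conservative summit was found at 9.55% of all protein-coding genes. The nearest summit downstream was 284739 bp from the start in the conservative, optimal and pool J lists and 10982 bp in the pool I list. In the conservative, optimal and pool J lists, the closest upstream was a strong summit at -3978. It lay in an intron of Emx2os, the antisense transcript of the locus. Its signal was 551 (90.6% lower) in the conservative list, 345 in the pool I list and 211 in the pool J list. It had no called motif, with a best window score of 3.45. The pool I list alone held a weak summit closer to the start, at -2555 (signal 43.4, 31.7% lower), also in an intron of Emx2os.

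Around Pax6 the counts were nearly the same in every list. It had 5 summits upstream in all 4 lists and 2 downstream in all 4, with 1 inside the gene (2 in the pool I list). The summit inside, at +18844, was weak, with a signal of 122 in the conservative list (18.5% lower), 93.1 in the pool I list (56.5% lower) and 27.2 in the pool J list (22.6% lower). Its ranks in these lists, which differ in length, were 36430, 35730 and 40749. The nearest upstream was at -52331 in an intron of Pax6os1, at 261 (48.9% lower). The strongest lay 240633 bp upstream, nearest to the start of Rcn1, with a signal of 547 (90.1% lower) and a motif. The downstream summits were in introns of Elp4, which borders Pax6 and holds some of its enhancers, and of Immp1l, at 31.4% and 12.1% lower.

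Lhx2 had strong summits on its downstream side and a nearly empty upstream side. It had 1 summit upstream in the conservative list, 2 in the optimal list, 8 in the pool I list and 1 in the pool J list, and 8, 7, 10 and 8 downstream. No list had a summit inside the gene. The single conservative summit upstream, at -152670 in an intron of Dennd1a, was weak at 120 (17.6% lower). The summits at +36885 and +90849 were strong. The first had a signal of 623 (98.0% lower) in the conservative list, 363 in the pool I list and 267 in the pool J list. The second, in an intron of Gm13589, had 653 (99.3% lower, rank 320), 388 and 266, but was not in the optimal list, since its IDR in the ranked list of the pooled reads was 0.079. Both had motifs, on the minus strand at +36885 and on the plus strand at +90849.

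Tbr1 had the fewest summits of the 8 genes in the conservative, optimal and pool J lists, and Pax6 had fewer (9, beside 11) in the pool I list. There were 2 upstream and 3 downstream in the conservative, optimal and pool J lists, and 6 upstream, 1 inside and 4 downstream in the pool I list. The nearest upstream was at -134487, 382 in signal (65.4% lower), and the nearest downstream at +12172, just past the gene end, at 290 (53.0% lower). The pool I list alone placed a weak summit 77 bp upstream of the gene record's 5' end (25.1% of its peaks lower). That position is over 1000 bp from the basic transcript starts, so it was not counted as a promoter summit. The strongest summit, at -159747 in an intron of Tank, had a signal of 500 (82.8% lower). Of the 5 conservative summits, 1 had a motif.

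Bcl11b carried many summits upstream and few downstream. Its counts were 16 upstream in the conservative list, 19 in the optimal list, 25 in the pool I list and 17 in the pool J list, with 3, 5, 6 and 4 inside and 1, 1, 3 and 1 downstream. The 3 conservative summits inside the gene, at +26376, +26933 and +64236, were weak, with 6.52% to 32.6% of peaks lower, and had no motif. In addition to the promoter summit, summits at -2901 and -5717 lay close upstream, at 189 and 182 in signal. The strongest conservative summit was at -117926 in an intron of Setd3, with a signal of 605 (96.7% lower) and no called motif. Only 5 of 20 summits had a motif.

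Cux1, the longest of the 8 genes at 319356 bp, had conservative summits in its distal part alone. It had 7 inside the gene in the conservative list, 9 in the optimal list, 11 in the pool I list and 10 in the pool J list, with 14, 17, 22 and 16 upstream and 15, 17, 25 and 16 downstream. All 7 lay at least 187917 bp from the start, and 6 of 7 had a motif. The strongest, at +314382 near the gene end, had a signal of 596 (95.8% lower) in the conservative list, 360 in the pool I list and 234 in the pool J list. The distance to the nearest downstream summit depended on the list: it was 187917 bp in the conservative list, 1066 bp in the optimal list, 9487 bp in the pool I list and 867 bp in the pool J list, each of the last 3 set by a weak summit. Outside the gene, a summit at -223503 in an intron of Col26a1 reached 644 (98.9% lower), and one at +450861, located 2 bp from the start of Polr2j, reached 629.9 (98.4% lower).

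Cux2 had the most summits of the 8 genes in the conservative, pool I and pool J lists, and Cux1 had 1 more in the optimal list (43, beside 42). It had 6 inside the gene in the conservative, optimal and pool J lists and 13 in the pool I list, with 18, 21, 31 and 21 upstream and 14, 15, 29 and 17 downstream. All 6 conservative summits inside had a motif, and they were spread from +50417 to +177764. The strongest, at +177764, had a signal of 628 (98.3% lower) in the conservative list, 374 in the pool I list and 256 in the pool J list. Among the 38 conservative summits of gene and flanks, 28 had a motif. Per 100 kb of gene, the conservative in-gene counts were 3.10 at Cux2, 3.22 at Bcl11b, 3.51 at Pax6 and 2.19 at Cux1. These were closer than the counts themselves, while Emx1, Emx2, Lhx2 and Tbr1 had 0. The Pax6 value rests on 1 summit and the Bcl11b value on 3. In the pool I list the values were 6.71 at Cux2, 6.44 at Bcl11b, 7.03 at Pax6 and 3.44 at Cux1. The highest pool I values were 17.6 at Emx1, from 3 summits, and 8.94 at Tbr1, from 1 summit. Emx2 and Lhx2 had 0 there too.

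**Figure D3:**
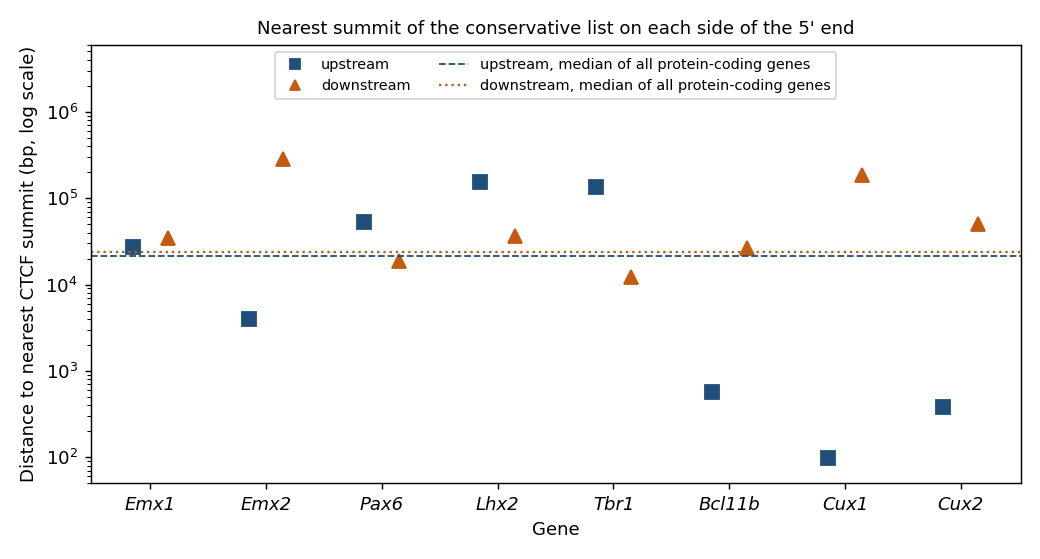
Distance in bp (log scale) from the 5' end of each gene to the nearest conservative summit upstream (squares) and downstream (triangles), with dashed and dotted lines for the medians of all protein-coding genes. The 3 genes with a promoter summit have upstream distances of 98, 386 and 574 bp, and Emx2 and Cux1 have downstream distances of 284739 and 187917 bp.

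The distances to the nearest summit spanned a wide range upstream, from 98 bp at Cux1 to 152670 bp at Lhx2. Their median over the 8 genes was 15511 bp upstream and 35828.5 bp downstream in the conservative list, beside 21319 and 24102 bp over all protein-coding genes. Upstream, the median over the 8 genes was the shorter one in all 4 lists. Downstream it was also longer in the pool J list (26799, beside 19819 bp). It was shorter in the optimal list (15508, beside 20717.5 bp) and the pool I list (10234.5, beside 11232.5 bp). The stretch around the start with no summit on either side had a median of 108917 bp, beside 54854 bp over all genes. This stretch was 288717 bp at Emx2 and 189555 bp at Lhx2, longer than at 86.6% and 81.3% of all genes, but 26950 bp at Bcl11b. At Bcl11b it was 5215 bp in the optimal, pool I and pool J lists, which held a strong summit 4641 to 4643 bp inside the gene. The median stretch was also longer than over all genes in the optimal list (60989, beside 47636 bp) and the pool J list (60967.5, beside 45946 bp). In the pool I list the order turned: the median stretch was 13072 bp over the 8 genes and 27755.5 bp over all genes. The long empty stretches of Emx2 and Lhx2 in the conservative list thus hold weaker pool I peaks, and the direction of the difference in medians depends on the list.

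Of the 155 conservative summits in the genes and flanks, 92 had a motif (59.4%, exact 95% binomial interval 51.2 to 67.2%, counting of summits only). The share over the whole list was 64.0%, and over windows 1000 bp from the summits 0.977%. Inside the genes it was 12 of 17 (70.6%, interval 44.0 to 89.7%). The genes differed in it: 28 of 38 at Cux2, 22 of 29 at Emx1 and 25 of 36 at Cux1 were high, and 5 of 20 at Bcl11b, 3 of 10 at Emx2 and 1 of 5 at Tbr1 were low. Pax6 had 4 of 8 and Lhx2 4 of 9. A summit without a called motif may still be near a weaker match, since only windows above the threshold were counted.

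Where a gene had motif-bearing summits in both flanks, their strands were compared. Motifs are convergent when the left one is on the plus strand and the right one on the minus strand, the arrangement typical of paired loop anchors. The nearest pair was convergent at Emx1 (61816 bp apart), Lhx2 (189555 bp) and Pax6 (385141 bp), and on the same strand at Bcl11b, Cux1 and Cux2. These 3 of 6 genes with convergent motifs stand beside 28.1% of the 17772 protein-coding genes with motifs on both sides, and the same-strand genes beside 46.6%. Emx2 and Tbr1 had no motif-bearing conservative summit on both sides. With the stricter threshold that 0.1% of flanking windows passed, 1 of 3 genes was convergent, Cux1, beside 24.4% of the 8205 genes with such motifs on both sides. No contact between these sites was measured. The convergent sites lie at chr6:85160390-85160419 and chr6:85222209-85222238 (Emx1), chr2:105523383-105523412 and chr2:105908506-105908535 (Pax6), and chr2:38186612-38186641 and chr2:38376142-38376171 (Lhx2), each printed on its own motif's strand.
Emx1 left, plus strand: gcctgTCTCCACAAGGTGGCAGACTttctc
Emx1 right, minus strand: aggtcAGCCCAGCAGAGGGCACCCAggaac
Pax6 left, plus strand: actacTGGCCAGGAGATGGCGCTGTgtcac
Pax6 right, minus strand: cattgTGTCCAGCAGGGAGCAGCCTtacaa
Lhx2 left, plus strand: cctggATCCCACCAGGTGGCAGAAGagccc
Lhx2 right, minus strand: gaggtGCACCGCCAGGGGGCGCTCTctgcc

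Some of the strongest peaks around the 8 genes were not in the conservative list. The peak with the highest signal of the whole ranked list of both pools, 783, lay 218726 bp upstream of Emx2 (peak interval chr19:59239405-59239924). It was in the pool I list with a signal of 437 (99.998% of peaks lower) and in the pool J list with 348 (99.975% lower), but its IDR was 0.682 in the ranked list of both pools and 0.165 in that of the pooled reads. It was therefore in neither the conservative nor the optimal list. The window printed above as the distal Emx2 site, with a score of 24.6, was centred 1 bp from the summit of this peak in the pool I list.

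Another such peak lay in an intron of Bcl11b, 4641 bp from the start (chr12:107998762-107999171), far stronger than any conservative summit inside that gene. Its signal was 693 in the ranked list of both pools (rank 163, IDR 0.682), 417 in the pool I list and 282 in the pool J list. The optimal list held it, with 99.9% of peaks lower. The third lay 207088 bp downstream of the start of Cux2, past the gene end (chr5:121842793-121843244), at 690 (rank 174, IDR 0.166), 410 in the pool I list and 286 in the pool J list, and was also in the optimal list. Both had motifs on the minus strand. Among all ranked peaks of both pools, 236 of the strongest 1335 (17.7%) were not in the conservative list, beside 258 of the strongest 13356 (1.93%). The cause of the high IDR of these peaks was not tested.

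**Figure D4:**
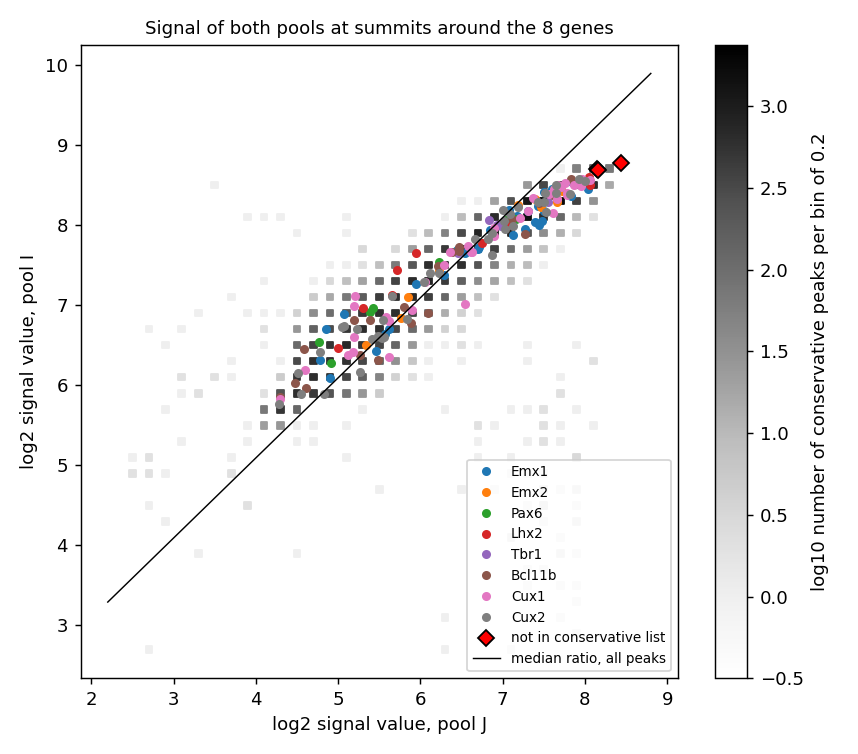
Log2 signal value of each conservative summit around the 8 genes in pool J (horizontal) and pool I (vertical), coloured by gene, over a grey map of all conservative peaks shaded by the log10 of their number. Diamonds are the 3 strong peaks not in the conservative list (2 of them nearly coincide), and the line is the median ratio of all peaks, a log2 ratio of 1.09; the summits around the genes lie along the cloud of all peaks.

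The signals of both pools were then set side by side at these genes. The conservative peaks were kept for being reproducible between the pools, so their closeness is partly fixed by that choice. The log2 ratio of the pool I signal to the pool J signal had a median of 1.04 over the 155 summits (SD 0.35, range 0.41 to 1.90) and 1.09 over all 44672 conservative peaks (SD 0.39). None of the 155 lay more than 2-fold from the median of all peaks, beside 0.470% of all conservative peaks. Over all ranked peaks of both pools, which were not so chosen, 69 of 399 peaks around the genes (17.3%) lay that far from the median, with an SD of 0.75 and a range of -3.24 to 2.98, beside 16.4% of all ranked peaks. By gene, the median departure of the conservative summits from their overall ratio ran from -0.12 at Emx1 and Cux1 to 0.38 at Lhx2, which rests on 9 summits. Single summits of Lhx2 ran from -0.65 to 0.63, with -0.65 at the strong one at +36885 and 0.38 at the weak one at -152670. Signal strength and gene were not separated in these medians. Of the 175 pool J summits around the genes, 172 (98.3%) overlapped a pool I peak, beside 97.5% of all pool J peaks. Of the 270 pool I summits, 177 (65.6%) overlapped a pool J peak, beside 63.1% of all pool I peaks.

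The sequence around the starts of the 8 genes was rich in CpG at most of them. In the 1 kb centred on the 5' end, the median GC content was 62.4% and the median ratio of observed to expected CpG 0.70, beside 54.7% and 0.55 over all protein-coding genes. Cux2 (0.98) and Cux1 (0.92) had the highest ratios, and Bcl11b (0.79) was the next, so the 3 genes with a promoter summit were also the 3 with the highest CpG ratio among the 8. Tbr1 had the lowest, 0.25, but the 1 kb around the 5' end of its gene record holds none of its basic transcript starts. Of the 15585 protein-coding genes with a ratio at or above this Tbr1 value, 27.0% had a conservative promoter summit. That cut-off lies far below the ratios of the 3 genes with a promoter summit. The median number of other protein-coding starts in gene and flanks was 3.5, beside 9 over all genes, and the most were at Cux2 (12), Cux1 (10) and Emx1 (8), the 3 genes with the most conservative summits. These values were read side by side over 8 genes, and their part in the counts was not tested.

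The wider set of 32 other genes of the excitatory lineage had conservative promoter summits at 5 (15.6%), beside 20.8% of all protein-coding genes. The count was 11 in the pool I list and 7 in the pool J list, beside 37.4% and 25.2% of all genes. Foxp2, a deep-layer forkhead gene (53.5% of peaks lower), Etv1, an ETS gene of the fifth layer (42.6% lower), and Bcl11a, the paralog of Bcl11b (39.8% lower), had the strongest. Eomes, the T-box gene of intermediate progenitors, and Otx1 were the others. Bhlhe22 and Dmrt3 were among those without. The Cux2 promoter summit, at 97.9%, was higher than any of these. The medians per gene were 1 summit inside and 8.5 in the flanks, beside 0.5 and 13.5 for the 8 genes.

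The companion with the most similar counts was sought, by the Euclidean distance of log2(1 + count) over 12 values, the 3 zones in the 4 lists. Hes5 was closest to Emx1 at a distance of 0.83 (15 upstream, 0 inside and 14 downstream in the conservative list, beside 14, 0 and 15). Tbr1 was nearest to Neurod1 (1.48), Lhx2 to Pou3f3 (1.97) and Emx2 to Bhlhe22 (2.88). Bcl11a was the most similar for Bcl11b (3.02), Cux1 (4.29) and Cux2 (4.35), so that no companion came as close to the Cux genes as to the others. Such similarity is of counts alone.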

How the data were processed

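The authors deposited 8 CTCF peak lists on mm10, 4 thresholded and 4 ranked, and both libraries of a pool share 1 alignment, per the deposited notes. The score deposited by the authors is a scaled IDR (540 at 0.05), and the ranked lists deposited by the authors give the IDR as −log10. The deposited signal value is in the caller's own unit, which is not stated. The aligner, the caller and their versions: not given in the sources used here. Which input of the both-pool list was which pool was read from matching intervals (84.5% of input 1 in pool I, 61.8% of input 2 in pool J, 0% crosswise).

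Summits were placed on the GENCODE M21 basic annotation of GRCm38.p6 with Python 3.11.15, pysam 0.24.0, SciPy 1.17.1, pandas 2.3.3, numpy 2.4.6 and matplotlib 3.10.9. A motif matrix was built from 1000 conservative peaks, those of highest signal on the odd autosomes and outside the windows of the 8 genes. Comparisons are counts and medians beside all protein-coding genes, with no test. Binomial intervals are exact (95%) and cover counting only. Scripts were tested on simulated data.

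The 8 genes and the other lists were chosen with earlier results of these data known. All 8 genes were named, with their strongest and nearest summits and the companion most alike. Every other list gave the 3 genes with the strongest promoter summit and the alphabetically first 2 without, and Eomes, Otx1 and a few further summits and neighbours were named after their values were seen. A few genes that this rule names are not reported here. Alternatives were the other lists, window sizes, thresholds and start sites.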

Additional observations from a re-analysis of the deposited data

How the results depend on the processing

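No paired analysis was possible because both libraries of a pool were merged before peaks were called and no result comes from a test. The 3 promoter summits were kept in each list and at an IDR of 0.01, while a 500 bp window left 1. Using a single pool's list in place of both, the summits inside the genes numbered 21 to 36 (17 in the conservative list), those in the flanks 154 to 234 (138), the median distance upstream was 1564.5 to 5825.5 bp (15511) and downstream 10234.5 to 26799 bp (35828.5), and the motif share was 47.8 to 54.9% (59.4%). The motif share over all summits was also lower in these lists, 51.6% in pool I and 59.0% in pool J, beside 64.0% in the conservative list. The higher counts and shorter distances come with longer lists, and the pool I list is the longest. With the optimal list, the median distances were 5826.5 bp upstream and 15508 bp downstream, beside 18647 and 20717.5 bp over all protein-coding genes. The stricter motif threshold gave a motif share of 16.1%, beside 13.6% over the whole conservative list, and 1 gene with convergent motifs in place of 3. The depth is unknown, so a peak missing from a list was not detected there, which does not show that CTCF was absent. Signal values of different lists have different scales and were compared only by rank or relative to the median ratio.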

Other observations

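Promoter summits were also counted for transcription factors of other lineages, without a test. Among 18 genes of the GABAergic lineage, which makes cortical interneurons, 1 (5.56%) had a conservative promoter summit, Satb1 (41.7% of peaks lower), beside 20.8% of all protein-coding genes. The count was 3 in the pool I list and 1 in the pool J list, beside 37.4% and 25.2% of all genes. The medians per gene were 0 summits inside and 8.5 in the flanks.

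Of 18 transcription factors of other tissues, 2 (11.1%, beside 20.8%) had a conservative promoter summit, the bone regulator Runx2 (35.7% lower) and the muscle regulator Myod1 (17.6% lower), and Cdx2 and Foxa2 were among those without. The medians per gene were 0 inside and 16.5 in the flanks, beside 0 and 14 over all protein-coding genes. CTCF binding is not expression, so these lists are gene groups only.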
